A study of Mus musculus with 12 samples.

Results

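Replication-dependent core histone genes were followed in mouse cerebellum through 7 gene symbols, 5 of histone H2A (Hist1h2af, Hist1h2ah, Hist1h2aj, Hist1h2ak and Hist1h2al) and 2 of histone H4 (Hist1h4k and Hist1h4m). A probe set was taken as a member when the Gene Symbol column of the authors' BaxBak comparison gave it one of these symbols. This gave 15 probe sets, 9 of H2A and 6 of H4, of 719071 probe sets on the array and of 31628 that carried a symbol. All 7 symbols were found, and all 15 probe sets were of the exon-region kind.

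Whole cerebella of C57BL/6 mice at postnatal day 3 were profiled in 4 groups of 3 samples. All animals carried Math1-Cre, a recombinase expressed in the granule cell lineage, to delete the floxed genes there. In which cells of the tissue they were deleted was not measured here. BaxBak controls were Math1-Cre;Bax-loxP/loxP;Bak--/- animals, which by genotype lacked the mitochondrial death effectors Bax (in that lineage) and Bak. Atr BaxBak mutants carried Atr-loxP/loxP in addition. The p53 controls were Math1-Cre;p53-loxP/loxP animals, and the Atr p53 mutants carried Atr-loxP/loxP as well. Atr encodes the kinase that responds to stalled replication forks. Whether the 3 animals of a group were littermates is not in the labels. P-values therefore cover only the variation among these arrays, part of which may be technical. Values are bulk log2 signals, and fewer dividing cells cannot be told apart from less histone RNA in each of them.

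Core histones H2A, H2B, H3 and H4 form the protein spool of the nucleosome, and H1 binds the DNA that enters and leaves it. Their replication-dependent genes lie in clusters, are transcribed mainly in S phase and mostly lack introns. Their messages normally end in a stem-loop instead of a poly-A tail, and some of these genes also give longer polyadenylated transcripts. In the cerebellum after birth the granule cell precursors of the outer layer are the main dividing cells. The labels describe the samples as poly-A selected and also name total RNA and a whole-transcript labelling kit, so how the messages without a tail were captured is not settled by them.

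Near-identical copies limit what a symbol means here. The RefSeq table (GRCm38.p6) lists Hist1h2af as H2ac10 at chr13:23533875-23534378 on the plus strand, Hist1h2ah as H2ac12 at chr13:22035122-22035643 on the minus strand, and Hist1h2ak as H2ac15 at chr13:21753377-21753912 on the minus strand. Hist1h4k is listed as H4c12 at chr13:21750145-21750553 on the minus strand, and Hist1h4m as H4c17 at chr13:21811746-21812150 on the plus strand. Hist1h2aj is now listed as a pseudogene (H2ac14, chr13:21721442-21721801) and Hist1h2al as a transcribed pseudogene (H2af-ps2, chr13:51200084-51203066). Hist1h4k and Hist1h2ak are neighbours on the same strand, 2824 bases apart. Hist1h2ak lies head to head with the H2B gene Hist1h2bn, with a gap of 164 bases, and Hist1h2ah with Hist1h2bk, with a gap of 178 bases.

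Of the 15 probe sets, 4 list a second symbol, all of them H4. PSR1300009833 of Hist1h4k also lists Hist1h4m. Of Hist1h4m's 4 probe sets, PSR1300001204 also lists Hist1h4n, while PSR1300009863 and PSR1300010164 also list Hist1h4b. PSR1300001204 has the same values in all 12 samples as a probe set named Hist1h4n, so those 2 identifiers are 1 measurement. The annotation text stops at 87 characters in the deposited table, and further symbols may be hidden. Probe set numbers on this chromosome follow the plus strand and then the minus strand in order of position, with 221 of 222 plus-strand and 281 of 281 minus-strand named probe sets in the expected part. By that order PSR1300009863 (next to Hist1h4n) and PSR1300010164 (between Hist1h2ac and Hist1h4c) fall among minus-strand numbers, whereas RefSeq places Hist1h4m on the plus strand. Values of Hist1h4m are therefore those of an H4 probe family and cannot be assigned to this 1 copy.

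The promoter windows of 4 members, among them the neighbours Hist1h4k and Hist1h2ak, are shown as a description. Whether these sequences bear on the values that follow was not tested. Each window runs from 250 bases before to 50 bases after the RefSeq start (RefSeq sequence, GRCm38.p6), read 5′ to 3′ on the gene's own strand. Capitals mark matches on either strand to 4 short motifs that are spelled out after the windows. The windows are chr13:21750504-21750803 (minus) for Hist1h4k, chr13:21811496-21811795 (plus) for Hist1h4m, chr13:21753863-21754162 (minus) for Hist1h2ak and chr13:22035594-22035893 (minus) for Hist1h2ah.
Hist1h4k: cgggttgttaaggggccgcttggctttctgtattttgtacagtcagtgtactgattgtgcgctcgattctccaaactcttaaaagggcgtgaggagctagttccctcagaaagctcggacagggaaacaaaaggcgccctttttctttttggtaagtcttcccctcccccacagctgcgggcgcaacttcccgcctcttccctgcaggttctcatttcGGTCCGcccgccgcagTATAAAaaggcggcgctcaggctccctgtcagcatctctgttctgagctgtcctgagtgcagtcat
Hist1h4m: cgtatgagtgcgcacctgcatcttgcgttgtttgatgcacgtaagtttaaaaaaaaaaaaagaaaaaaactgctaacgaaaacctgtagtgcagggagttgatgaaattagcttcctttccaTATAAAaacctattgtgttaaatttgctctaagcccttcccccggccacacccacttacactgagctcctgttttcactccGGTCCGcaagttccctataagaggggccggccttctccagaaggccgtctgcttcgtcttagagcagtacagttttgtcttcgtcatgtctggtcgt
Hist1h2ak: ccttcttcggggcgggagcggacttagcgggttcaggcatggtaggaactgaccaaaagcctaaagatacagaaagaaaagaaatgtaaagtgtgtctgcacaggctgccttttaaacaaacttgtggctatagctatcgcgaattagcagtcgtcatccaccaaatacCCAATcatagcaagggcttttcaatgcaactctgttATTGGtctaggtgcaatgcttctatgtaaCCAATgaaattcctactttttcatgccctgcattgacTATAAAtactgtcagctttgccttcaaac
Hist1h2ah: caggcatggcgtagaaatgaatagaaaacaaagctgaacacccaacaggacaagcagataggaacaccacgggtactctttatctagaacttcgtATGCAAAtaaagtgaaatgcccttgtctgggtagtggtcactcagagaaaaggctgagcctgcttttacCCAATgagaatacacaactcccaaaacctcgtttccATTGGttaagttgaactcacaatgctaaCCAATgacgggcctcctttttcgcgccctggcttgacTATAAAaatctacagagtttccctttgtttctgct

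The H2A windows held CCAAT 3 times in Hist1h2ak, 3 times in Hist1h2ah and 2 times in Hist1h2af, and neither H4 window held it. CCAAT was present in 37.4% of 32851 mouse promoter windows of the same length. TATAAA (13.6% of windows) stood once in Hist1h4k, Hist1h4m, Hist1h2ak and Hist1h2ah and not in Hist1h2af. TTTGCAT, 7 letters of the octamer known from H2B promoters, was in 4.63% of windows and once in that of Hist1h2ah, whose head-to-head neighbour is an H2B gene. GGTCCG, which was searched only after the sequences had been read, stood once in each H4 window and in 8.25% of all windows. The E2F-like letters TTTGGCG (1.56% of windows) and TTTCCCG (3.39%) were in none of the 5 member windows. Hist1h2aj and Hist1h2al have no window in the table.

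The members gave some of the brightest signals on the array, and 5 of them did not. Of the 15 probe sets, 10 had a mean log2 signal above 10 over the 12 samples. The brightest was Hist1h2aj, which only 0.0700% of all probe sets exceeded, and the highest value on any array was 13.9. The other 5 were PSR1300009835 of Hist1h2ak (mean 9.40), PSR1300009832 of Hist1h4k (6.16), and PSR1300001203, PSR1300009863 and PSR1300010164 of Hist1h4m (6.02, 6.07 and 5.60). All 15 lay above the mean of the 5222 negative control probe sets (4.27). The 4 dimmest H4 probe sets were not far above background. Between 4.56% and 43.2% of the negative controls were brighter in a given sample than Hist1h4m PSR1300009863, and between 4.88% and 24.1% than Hist1h4k PSR1300009832. For the 10 bright probe sets and Hist1h2ak PSR1300009835 that share never passed 1.57%.

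**Figure D1:**
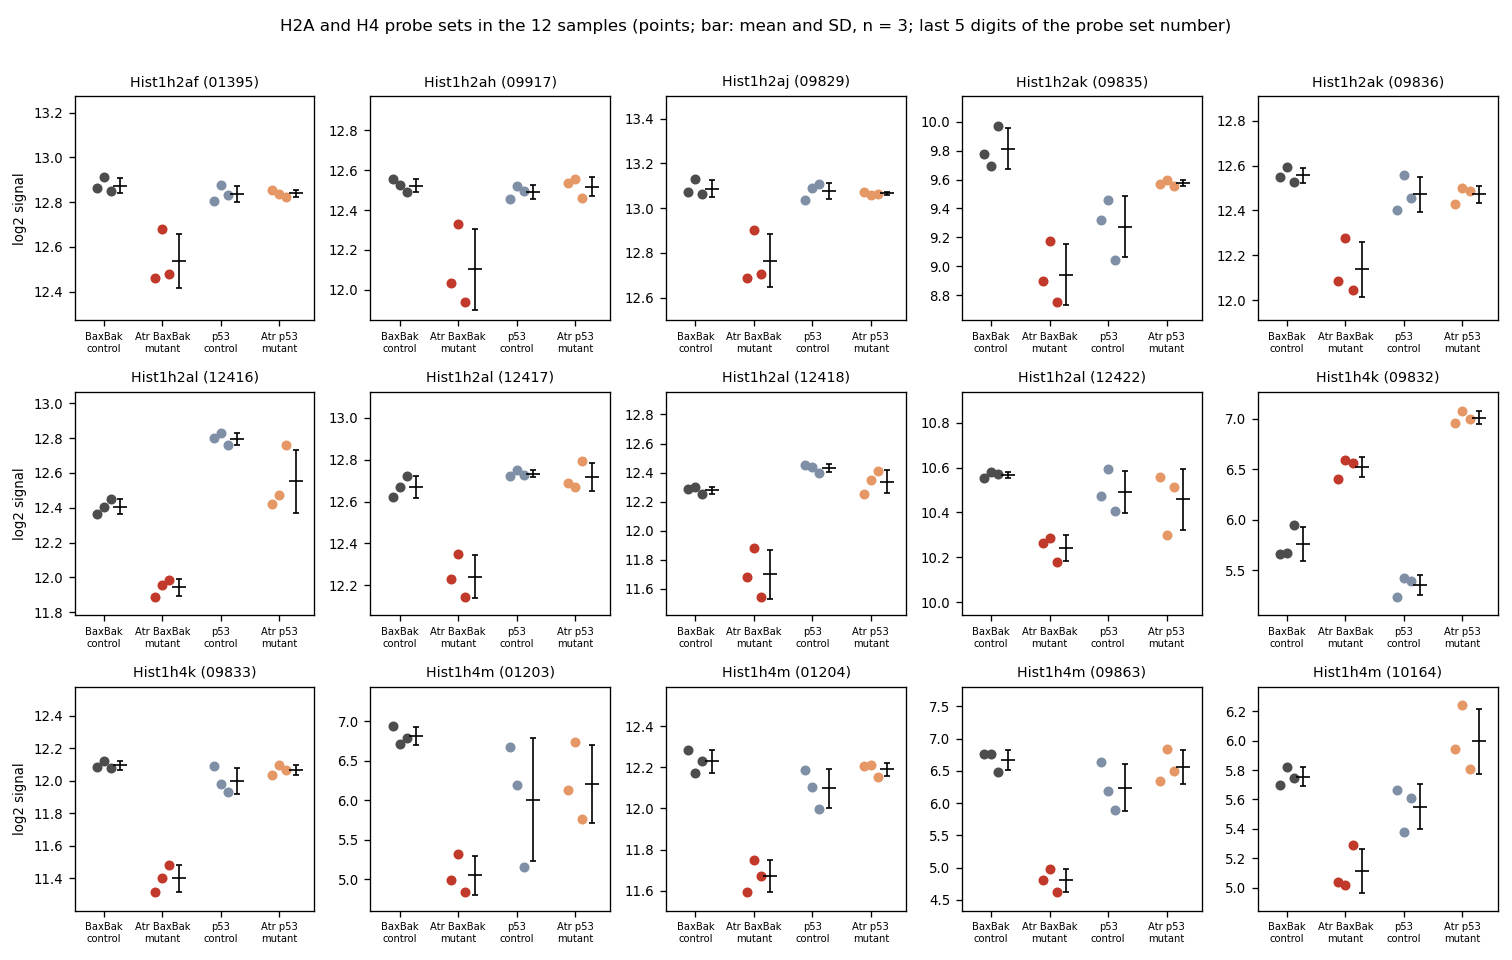
Log2 signal (vertical axes, centred on each probe set's mean, with different spans) of the 15 H2A and H4 probe sets in the 4 groups; each point is a sample, and the bar beside it is the mean with the SD (n = 3). The Atr BaxBak mutants have the lowest group mean in 14 panels, and Hist1h4k PSR1300009832 is the panel in which both mutant groups lie above both control groups.

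In the BaxBak background, members fell where Atr was deleted. Of 15 probe sets, 14 were below their controls, and 10 of those passed limma's test over all probe sets at an adjusted p under 0.05. The remaining probe set, PSR1300009832 of Hist1h4k, passed in the other direction. Over the array 5.24% of probe sets were called, 3.02% lower and 2.22% higher. Below 0 were 52.7% of all probe sets and 64.7% of named ones. A probe set carries a symbol only because it passed the authors' own test of this contrast, so these values describe the members and are no independent support. The members' median log2 difference was -0.46, against -0.41 over all named probe sets and -0.02 over all probe sets. The H2A median was -0.42 and the H4 median -0.67.

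All 5 H2A symbols were lower, from -0.32 for Hist1h2aj to -0.65 for Hist1h2ak as gene means. Within groups Hist1h2af correlated with Hist1h2aj at 0.96 and with Hist1h2ah at 0.90. Whether near-identical copies share signal was not tested, so the 5 are not counted as independent. Hist1h2aj gave 13.07, 13.13 and 13.06 in the BaxBak controls and 12.69, 12.90 and 12.71 in the Atr BaxBak mutants, a log2 difference of -0.32 ± 0.09 (SE, n = 3 against 3, limma adjusted p = 0.0675). Hist1h2af gave 12.86, 12.91 and 12.85 in those controls and 12.46, 12.68 and 12.48 in the mutants (-0.33 ± 0.09, adjusted p = 0.0601). Both groups of 3 were separate for each gene, but neither gene passed over the array, and mutant replicate 2 was the closest to the controls for both. Hist1h2ah gave 12.55, 12.52 and 12.49 in the controls and 12.04, 12.33 and 11.94 in the mutants (-0.42 ± 0.11, adjusted p = 0.0508). It too missed the threshold, and without mutant replicate 2 it passed (-0.54, adjusted p = 0.0327). With each sample of these groups left out in turn, its limma adjusted p ran from that value up to 0.164.

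Hist1h2ak was measured by a bright and a dimmer probe set. PSR1300009836 gave 12.55, 12.59 and 12.53 in the BaxBak controls and 12.09, 12.28 and 12.05 in the Atr BaxBak mutants (-0.42 ± 0.10, adjusted p = 0.0330). PSR1300009835, whose number places it on the 3′ side of the first, gave 9.78, 9.69 and 9.97 against 8.90, 9.18 and 8.76 (-0.87 ± 0.14, adjusted p = 0.00934). Both passed, and the dimmer one differed by more on the log2 scale. Hist1h2al, a transcribed pseudogene in the present annotation, had 4 probe sets between -0.58 and -0.32, and 3 of them passed with adjusted p from 0.0136 to 0.0318. The fourth, PSR1300012422, was at -0.32 ± 0.10 (adjusted p = 0.0874).

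The H4 genes differed among their own probe sets. Hist1h4k PSR1300009833 gave 12.08, 12.12 and 12.08 in the BaxBak controls and 11.32, 11.40 and 11.48 in the Atr BaxBak mutants (-0.69 ± 0.09, adjusted p = 0.00411). Hist1h4k PSR1300009832 gave 5.66, 5.67 and 5.95 in those controls and 6.40, 6.59 and 6.56 in the mutants (0.76 ± 0.11, adjusted p = 0.00653). The groups did not overlap in either, and the directions were opposite. As a result the mean of both probe sets was 0.03 ± 0.06 (adjusted p = 0.581 over 8126 named genes), a value that describes neither.

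Hist1h4m held the largest differences among the members. PSR1300009863 gave 6.76, 6.76 and 6.48 in the BaxBak controls and 4.80, 4.99 and 4.62 in the Atr BaxBak mutants (-1.87 ± 0.19, adjusted p = 0.00154). PSR1300001203 gave 6.94, 6.71 and 6.78 against 4.99, 5.32 and 4.84 (-1.76 ± 0.34, adjusted p = 0.0190). The mutant values of both lay within about 1 log2 unit of the negative control mean of their own group, 4.43. PSR1300010164 was at -0.64 ± 0.13 (adjusted p = 0.0247), and the bright PSR1300001204 at -0.56 ± 0.09 (adjusted p = 0.0106). All 15 member probe sets had groups that did not overlap, as did 31.6% of all probe sets.

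Among the members the dimmer probe sets mostly had the larger differences. The 10 probe sets with a mean above 10 lay between -0.69 and -0.32 in the BaxBak background, and the 5 dimmer ones between -1.87 and 0.76. Of the dimmer ones, Hist1h4m PSR1300010164 at -0.64 lay inside the range of the bright ones. In the 101 other named histone probe sets the 75 above 10 had a median of -0.56 and the 26 at or below it a median of -0.74. The limit of 10 was set after the values had been seen. How far signals near the top of the range were compressed was not tested.

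Other measures moved with the fall in the BaxBak background. The negative controls averaged 4.11 in the BaxBak controls and 4.43 in the Atr BaxBak mutants, against 4.23 in the p53 controls and 4.30 in the Atr p53 mutants. With that mean as a covariate no member passed in the BaxBak background, but the differences kept their direction and ran from -1.92 to 0.71. Hist1h4m PSR1300009863 was at -1.89 and Hist1h4k PSR1300009832 at 0.71, close to the values without it, but these do not stand for all members. Over all alternatives, the covariate among them, Hist1h2al PSR1300012416 ranged from -0.49 to -0.35, against -0.46 in the main fit. Hist1h2al PSR1300012422 ranged from -0.35 to -0.24, against -0.32. All 3 Atr BaxBak mutants share a title prefix that no other group carries, so prefix and genotype cannot be told apart there. Of 12 granule cell lineage markers 11 were named, 10 of them were called lower and 1 higher, where 58.7% of named genes were called lower and 39.5% higher, and together they averaged 9.73 to 9.84 in the BaxBak controls and 9.20 to 9.31 in the mutants. Of 9 astrocyte markers 6 were named, all 6 rose, and their mean went from 8.23 to 8.49 in the controls to 9.26 to 9.35 in the mutants. Of 7 named oligodendrocyte markers 6 rose and Pdgfra, a marker of their precursors, fell (-0.72 ± 0.11), and all named Purkinje cell (5), interneuron (5), vascular (2) and microglia (3) markers rose. All 27 S-phase genes fell, from a mean of 8.92 to 9.03 in the controls to 7.98 to 8.15 in the mutants. Their part in the members' values was not tested. The genotypes could be checked only through Trp53, since no named probe set carried Atr, Bax or Bak1. The mean of its 6 named probe sets was 8.60 to 8.79 in the p53 controls and 8.77 to 8.79 in the Atr p53 mutants, below the BaxBak controls (9.00 to 9.16) and the Atr BaxBak mutants (9.68 to 9.78).

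In the p53 background the same deletion left all but 1 of the members without a call. Of 15 probe sets, 1 passed, Hist1h4k PSR1300009832, which rose, where 0.00236% of all probe sets were called higher and 0.00445% (32) in either direction. Names were not chosen on this contrast. The members' median difference was 0.03, against -0.06 over the named probe sets and -0.02 over all. The H2A median was -0.01, with 6 of 9 below 0, and the H4 median was 0.26, with 0 of 6 below 0. Below 0 were 53.1% of all probe sets and 65.8% of named ones. Of the other histone probe sets 69 of 101 were above 0, among them all 11 of the other H4 genes. Among these 11, the probe set of Hist1h4n holds the same values as Hist1h4m PSR1300001204. With the title prefix as a fixed block, Hist1h4k PSR1300009833 and Hist1h4m PSR1300001203 and PSR1300009863 fell below 0. An unadjusted p under 0.05 was reached by 3 members, where 7.76% of all probe sets reached it.

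Hist1h4k PSR1300009832 gave 5.23, 5.42 and 5.39 in the p53 controls and 6.96, 7.08 and 6.997 in the Atr p53 mutants. Every mutant lay more than 1 log2 unit above every control. The difference was 1.66 ± 0.11 (SE, n = 3 against 3, 95% interval 1.41 to 1.91, limma adjusted p = 0.00115), or 3.16-fold, and the authors' deposited table gives a step-up p of 0.0202. It is 1 of 2 probe sets in the authors' deposited table with a step-up p under 0.05 in this contrast. Fitted on these 6 samples alone it lost the call (adjusted p = 0.160). The 3 mutants share their title prefix with p53 control 1, and against that sample the difference was 1.78. With the prefix as a fixed block, which leaves that 1 control for the comparison, the call was lost (limma adjusted p = 0.999999).

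The other Hist1h4k probe set did not move with it. PSR1300009833 gave 12.09, 11.98 and 11.93 in the p53 controls and 12.04, 12.10 and 12.06 in the Atr p53 mutants, and the groups overlapped (0.07 ± 0.09, 95% interval -0.13 to 0.27, adjusted p = 0.851). The gene mean of 0.86 ± 0.06 (adjusted p = 0.000102 over named genes, of which 1.23% were called higher) thus rests on the dim probe set. An exact permutation test of that mean gave p = 0.1, two-sided, the smallest value that 3 against 3 samples can give. By number the rising probe set lies on the 3′ side of the bright one, and RefSeq lists Hist1h4k with a length of 409 bases. Probe coordinates were not used here.

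The remaining members were close to their p53 controls. Hist1h2af, Hist1h2ah and Hist1h2aj differed by 0.00, 0.03 and -0.01, each with a 95% interval inside -0.21 to 0.27. Hist1h2aj gave 13.04, 13.09 and 13.11 in the p53 controls and 13.07, 13.06 and 13.07 in the Atr p53 mutants. Hist1h2ak PSR1300009835 gave 9.32, 9.46 and 9.04 against 9.57, 9.60 and 9.56, without overlap, at 0.30 ± 0.14 (adjusted p = 0.648). Hist1h2al PSR1300012416 gave 12.80, 12.83 and 12.76 against 12.42, 12.47 and 12.76, at -0.25 ± 0.10 (adjusted p = 0.641). In that pseudogene mutant replicate 3 stood at the level of the controls, just below the lowest of them.

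Hist1h4m was variable in the p53 samples. PSR1300001203 gave 6.68, 6.19 and 5.15 in the p53 controls and 6.12, 6.74 and 5.76 in the Atr p53 mutants (0.20 ± 0.34, 95% interval -0.56 to 0.96, adjusted p = 0.886). A control sample was the lowest of the 6 and another stood near the top. PSR1300009863 gave 6.63, 6.19 and 5.90 against 6.34, 6.84 and 6.49 (0.32 ± 0.19, adjusted p = 0.686). PSR1300010164 gave 5.66, 5.38 and 5.61 against 5.94, 6.24 and 5.81, without overlap (0.45 ± 0.13, unadjusted p = 0.00697, adjusted p = 0.640). In all, 4 of the 15 members had p53 groups that did not overlap, 3 of them higher in the mutants, where 10.8% of all probe sets had such groups. Against p53 control 1 alone, which shares the mutants' title prefix, PSR1300001203 was at -0.47 and PSR1300009863 at -0.07, so their direction depends on the controls used.

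**Figure D2:**
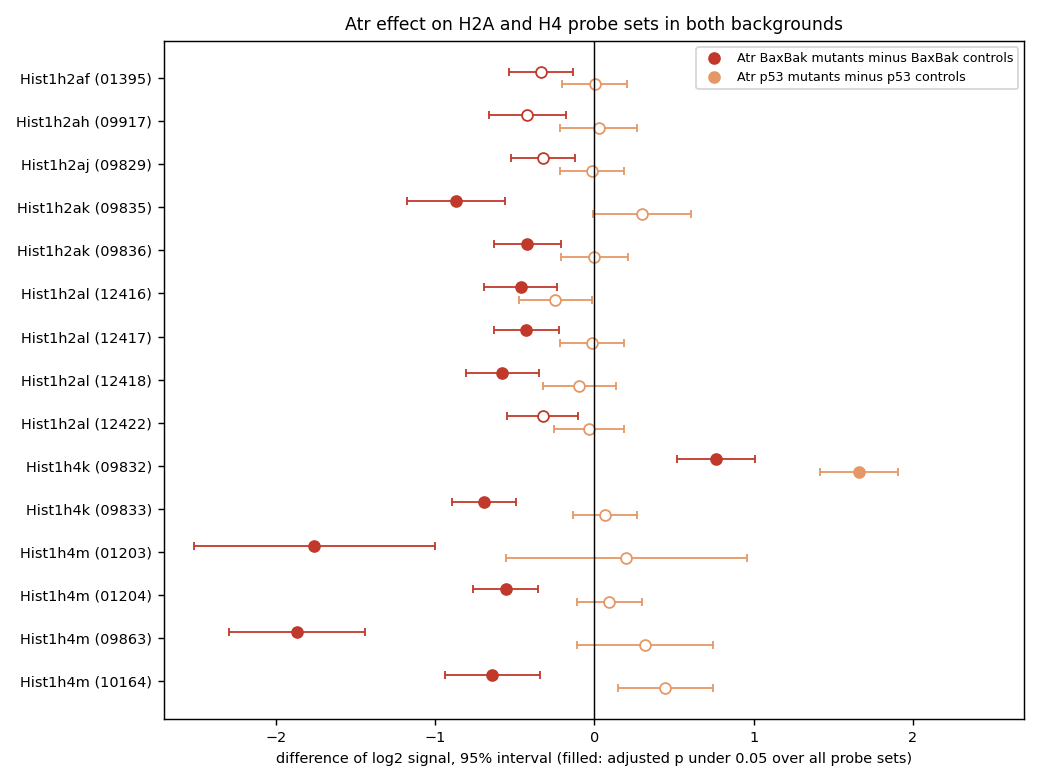
Difference of log2 signal between Atr mutants and their controls (horizontal axis) for the 15 probe sets in the BaxBak (dark red) and p53 (orange) backgrounds, with 95% intervals from limma; filled points have an adjusted p under 0.05 over all 719071 probe sets. In the p53 background the filled point is Hist1h4k PSR1300009832 at 1.66.

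The size of the Atr effect was compared between the backgrounds in 1 test of the difference, which contains the contrast that named the probe sets; 83.8% of named genes passed it. All 15 members lay below 0 in it, with a median of -0.48, where 50.9% of all and 64.7% of named probe sets were below 0. Hist1h4m PSR1300009863 passed over the array (-2.18 ± 0.28, adjusted p = 0.0224), where 0.0809% of probe sets did. It no longer passed without BaxBak control 1 or 2, Atr BaxBak mutant 2 or 3, p53 control 2 or 3, or Atr p53 mutant 3, each left out in turn. For Hist1h4k PSR1300009832, which was higher in the mutants of both backgrounds, the difference was -0.90 ± 0.16 and did not pass. That probe set was also at different levels in the control groups, 5.76 ± 0.17 in the BaxBak and 5.35 ± 0.10 in the p53 controls (SD, n = 3). Between the control groups 0 of 15 members passed limma's test and 4 had an unadjusted p under 0.05, where 0.0964% and 10.2% of all probe sets did. As gene means, of which 17.1% passed in this comparison, 2 of 7 members did, Hist1h4k (-0.25, adjusted p = 0.0181) and Hist1h2ak (-0.31, adjusted p = 0.0313), both lower in the p53 controls.

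In gene means the Atr BaxBak mutants were the lowest group for 6 of the 7 genes, while the order of the other groups varied among genes. For Hist1h4m these means were 7.87 ± 0.05 in the BaxBak controls, 6.66 ± 0.09 in the Atr BaxBak mutants, 7.47 ± 0.31 in the p53 controls and 7.74 ± 0.24 in the Atr p53 mutants (SD, n = 3). The Atr BaxBak mutants, at 6.60 to 6.77, lay below every other sample. The Atr p53 mutants, from 7.55 to 8.01, overlapped both control groups. The p53 controls, from 7.16 to 7.79, lay below the BaxBak controls, from 7.81 to 7.92. For Hist1h2al they were 11.98 ± 0.02, 11.53 ± 0.08, 12.11 ± 0.04 and 12.02 ± 0.09 in the same order. For Hist1h4k they were 8.93 ± 0.08, 8.96 ± 0.09, 8.67 ± 0.02 and 9.54 ± 0.05, with the Atr p53 mutants on top and no overlap with any other group. Over the 12 samples the Pearson correlation between gene means was 0.75 to 0.99 among the other 6 genes and 0.01 to 0.24 between Hist1h4k and each of them. These values share their groups and arrays and describe the pattern only.

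The genes most like all members, and like the H2A members, were mostly other histones. Over the 12 samples the mean of all members correlated most with the H2B genes Hist1h2bl (r = 0.984) and Hist1h2bm (0.982), the H4 gene Hist1h4i (0.982), the H2B gene Hist3h2ba (0.982) and Ptpn2 (0.979), which encodes a tyrosine phosphatase. For the H2A members alone they were Hist1h2an (0.989), Hist1h4b (0.987), Hist1h3e (0.986), Hist1h2ae (0.985) and Kbtbd11 (0.983). For the H4 members alone the leading genes were BC048502 (0.962), Hist2h2bb (0.954), Hist4h4 (0.951), Alg12 (0.938) and Gm12304 (0.936), of which only Hist2h2bb and Hist4h4 are histones. Group means were low for BC048502 (4.44 to 5.51) and Gm12304 (3.87 to 4.17), near the negative controls. Candidates came only from named genes, whose naming required a difference in the BaxBak background.

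Other histone genes gave a context of 101 probe sets of 55 genes. In the BaxBak background 4 of 4 named H1 genes were called lower (median -0.79), with Hist1h1b, the H1.5 linker histone, at -1.28 ± 0.09. Of the other H2A genes 11 of 12 were lower and 1 higher (median -0.43), and of H2B genes 13 of 16 lower and 3 higher (-0.71). Of H3 genes 9 of 10 were lower and 1 higher (-0.44), and of the other H4 genes 9 of 10 lower (-0.57). Among these H4 genes, Hist1h4n rests on a probe set with the same values as Hist1h4m PSR1300001204. All 3 named H2A variants were lower, among them H2afz (-0.72 ± 0.06), which encodes H2A.Z, and H2afx (-0.52 ± 0.08), whose product is phosphorylated at DNA breaks. These are counts over named genes, of which 58.7% were called lower and 39.5% higher.

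In the p53 background 7 of these 55 genes were called as gene means, all higher, where 1.23% of named genes were. They were Hist1h2bc (1.25 ± 0.10), Hist1h2br (0.63 ± 0.07), Hist1h2bq (0.60 ± 0.08) and Hist2h2bb (0.59 ± 0.12) of H2B, Hist1h2ac (0.63 ± 0.09) of H2A, Hist2h3b (1.15 ± 0.16) of H3 and Hist4h4 (0.58 ± 0.11) of H4. No H1 gene and no H2A variant was called. Hist1h2bq and Hist1h2br share values on a probe set and are not separate evidence. The brightest probe sets of Hist1h2bc, Hist1h2bq, Hist1h2br and Hist1h2ac differed by 0.18, 0.14, 0.14 and 0.08 and were not called. Hist2h2bb was at 1.70 on 1 probe set and at 0.17 and -0.10 on its others. Hist2h3b and Hist4h4 had 1 probe set each. Single probe sets were called over the array only in Hist1h2bc, so most of these gene means rest on part of a gene's probe sets or on 1.

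The split seen in Hist1h4k recurred in other histone genes. Of the 101 other probe sets, 9 were higher in the Atr BaxBak mutants than in their controls, by 0.86 to 1.57, and the same 9 were higher in the Atr p53 mutants, by 0.32 to 1.79. They belong to Hist1h2ac, Hist1h2bc, Hist1h2bq, Hist1h2br, Hist1h4h and Hist2h3b, and were picked out after their values had been seen. Mean log2 signals over the 12 samples were 3.57 and 5.97 for Hist1h2bq, 4.70 for Hist1h2ac, 5.36 and 5.77 for Hist1h2br and 5.68 for Hist2h3b. They were 8.94 for Hist1h4h and 9.86 and 10.2 for Hist1h2bc. The negative controls averaged 4.27. They were at 4.11 in the BaxBak controls and 4.43 in the Atr BaxBak mutants, and their part in these differences was not tested. The symbol Hist2h3b is uncertain: RefSeq places that gene on chromosome 3, whereas its probe set PSR1300010183 carries a chromosome 13 number next to PSR1300010184 of Hist1h3c. Hist1h2bc held 2 of the 9 rising probe sets, both called over the array in the p53 background. They were the exon region PSR1300001429 (1.79, limma adjusted p = 0.0111) and the junction JUC1300000709 (1.79, limma adjusted p = 0.0197). In 5 of the 6 genes a brighter probe set of the same gene was lower in the Atr BaxBak mutants, for example PSR1300001428 of Hist1h2bc at -0.51 and PSR1300010160 of Hist1h2ac at -0.36. Where strand and number allow an order, the rising probe sets of Hist1h2ac, Hist1h2bq and Hist1h2br lie on the 3′ side of the bright one, as in Hist1h4k, and that of Hist1h4h on the 5′ side. RefSeq lists Hist1h2bc with a span of 8282 bases and Hist1h2bq and Hist1h2br with 3788, against 409 for Hist1h4k. The dim 3′ probe set of Hist1h2ak (PSR1300009835) fell in the BaxBak background instead.

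**Figure D3:**
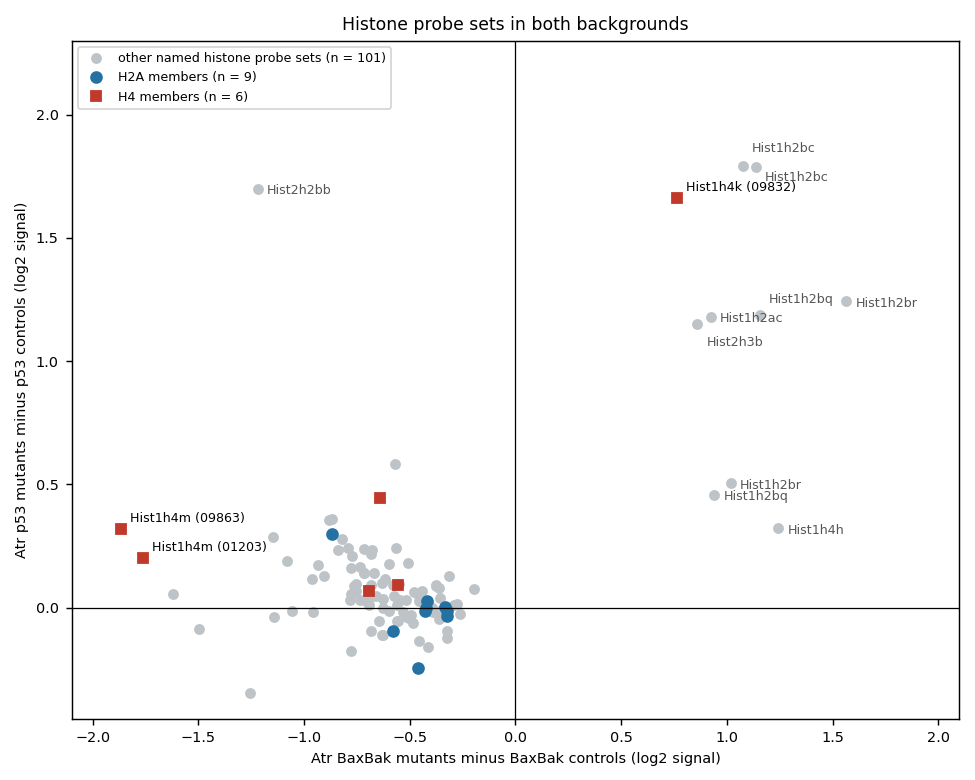
Difference of log2 signal in the BaxBak background (horizontal axis) against that in the p53 background (vertical axis) for the 9 H2A members (circles), the 6 H4 members (squares) and 101 other named histone probe sets (grey); the axes use separate samples. Hist1h4k PSR1300009832 lies at the upper right with 9 other histone probe sets, and 14 of the 15 members lie left of 0.

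Genes that act on histone messages and proteins were listed as well. In the BaxBak background 58.7% of named genes were called lower and 39.5% higher. Of 13 named histone mRNA processing genes, 10 were lower and 3 higher there. Among the lower ones were Slbp, which encodes the protein that binds the stem-loop (-0.75 ± 0.08), and Casp8ap2, whose product FLASH takes part in 3′ end cleavage (-0.67 ± 0.08). In the p53 background, where 1.33% of named genes were called lower, 1 of the 13 was, Nelfe, a subunit of the negative elongation factor, at -0.30 ± 0.07 (adjusted p = 0.0471). Of 19 histone chaperone genes, 18 were lower in the BaxBak background and 0 were called in the p53 background. Of 27 S-phase genes, 27 were lower in the BaxBak background (median -0.93). In the p53 background 1 was called lower, with 26 of 27 below 0 and a median of -0.28. The H4 members were all above 0 there, as were all 11 probe sets of the other H4 genes. Of those 11, the probe set of Hist1h4n holds the same values as member PSR1300001204. With the title prefix as a fixed block, Hist1h4k PSR1300009833 and Hist1h4m PSR1300001203 and PSR1300009863 fell below 0.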

How the data were processed

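Per the labels' protocols, 500 ng of total RNA from each of 12 cerebella was labelled with the Affymetrix WT PLUS kit. The authors deposited log2 signals for 725678 probe sets. Of these, 61 had no values and 6546 were controls. Array medians lay between 6.46 and 6.49. The submitters' processing notes name Partek; how signals were summarised and normalized, and the annotation build, is not stated there. The authors' deposited tables also hold p-values, step-up p-values and fold changes (a signed score, negative where lower) for 34305 probe sets passing in the BaxBak comparison, and these supplied the symbols. Their log2 folds equalled the group differences to within 9.27e-05. A further deposited table of log2 values was not used. Symbols turned into dates were restored for 50 probe sets.

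Every probe set, and every named gene as the mean of its probe sets, was fitted with limma 3.58.1 in R 4.3.3 (1 mean per group, 12 samples, 8 residual degrees of freedom, two-sided). P-values were adjusted by Benjamini-Hochberg over 719071 probe sets or 8126 genes, threshold 0.05. The script was tested on simulated data. The named genes are the members, at most 4 genes per context list by smallest p, and the 5 most correlated genes per likeness search; the rising histone probe sets were added after their values were seen. Members and lists were chosen with earlier results of these data known. Proteins were not analysed here.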

Additional observations from a re-analysis of the deposited data

Results flagged for a closer look

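The Atr effect on Hist1h4m PSR1300009863 differed between the backgrounds by -2.18 on the log2 scale (BaxBak minus p53), the member probe set that passed limma's test of that difference over the array. In gene means the same test, over 8126 named genes of which 83.8% passed, was passed by all 7 members. The differences were -0.34 for Hist1h2af, -0.45 for Hist1h2ah, -0.31 for Hist1h2aj, -0.79 for Hist1h2ak, -0.35 for Hist1h2al, -0.83 for Hist1h4k and -1.47 for Hist1h4m. All were named by their change in the BaxBak background, and the share of passing members is read against that background. For Hist1h4k the value joins probe sets of opposite direction.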

How the results depend on the processing

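No paired analysis was possible because the replicate numbers follow accession order and pair no samples across groups. In the BaxBak background 37680 probe sets and 11 members passed; leaving out 1 sample gave 7554 to 15943 and 5 to 10 (fewer samples), and the negative control mean as a covariate gave 759 and 0, with all 15 member differences keeping their direction (-1.92 to 0.71, adjusted p from 0.0543 to 0.494). In the p53 background 32 probe sets and 1 member passed; leaving out 1 sample gave 20 to 54 and 1 to 1, the groups compared alone gave 0 and 0, and the title prefix as a fixed block gave 0 and 0. For the difference, 582 and 1 became 167 to 1034 and 0 to 1 without 1 sample, 1175 and 5 with probe sets above the negative controls only, and 131 and 0 with the covariate. Between the controls, 693 became 306 to 754 without 1 sample and 246 with those groups alone.

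Of the 15 member differences in the p53 background, 8 changed sign under at least 1 alternative, and none of the 8 was called. Beyond the pooled within-group SD of the value, 5 results turned direction. With the prefix block the p53 values were -0.0234 for Hist1h4k PSR1300009833, -0.47 for Hist1h4m PSR1300001203 and -0.0731 for PSR1300009863. With a gene's brightest probe set alone, Hist1h4k was -0.69 in the BaxBak background and Hist1h2ak -0.0008333 in the p53 background. Without p53 control 3, PSR1300001203 was at -0.23, and without Atr p53 mutant 2 at -0.06. Probe sets listing 1 symbol, an alternative chosen after seeing the data, put Hist1h4k at 0.76 in the BaxBak background. Apart from the alternatives' own construction, the cause was not tested. Hist1h4k PSR1300009832 stayed between 1.60 and 1.70 in the p53 background without any 1 sample (adjusted p from 0.00579 to 0.0117). Signal near the negative controls limits the 4 dimmest H4 probe sets.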
